A study of Mus musculus with 8 samples.

Results

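Hepatocytes are not alike along the liver lobule, and 10 genes that mark this zonation were followed here by symbol in every deposited column of the study. They comprised 5 pericentral genes, Glul, Lgr5, Slc1a2, Oat and Tbx3, which are known from hepatocytes beside the central vein, and 5 periportal genes, Hal, Sds, Ass1, Cps1 and Gls2, known from hepatocytes beside the portal tract. All 10 were present among the 15283 genes of the bulk liver table and among the 22578 genes of the liver nuclei table, and all 10 were above the low-value limit of the bulk test. The study set Tgfbr1 MKO mice (flox/flox; LysMcre) against control mice (flox/flox), so both genotypes carried the floxed Tgfbr1 alleles and the MKO mice also carried LysMcre, a Cre recombinase expressed from the Lyz2 locus of myeloid cells. All mice had been on a MASH diet for 30 weeks, which produces fatty liver with inflammation. Bulk RNA gave 3 MKO and 3 control liver libraries, and nuclei came from 1 pool per genotype, each made of 3 livers. Hepatocytes, which express the zonation genes, are not the known target of this Cre. The labels state neither age nor sex.

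Blood enters the liver lobule at the portal tract and leaves at the central vein, and hepatocytes along this path divide the work of amino acid and ammonia metabolism. Periportal hepatocytes break down amino acids and build urea, while the last rows before the central vein take up the remaining ammonia and glutamate and make glutamine. Endothelial cells at the central vein secrete Wnt2, Wnt9b and R-spondin 3, which act through LGR receptors and beta-catenin to keep the pericentral genes on, and glucagon is known to favour the periportal ones.

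Promoter sequences from RefSeq (build GRCm38.p6) matched 5 of the 10 genes, Glul, Slc1a2, Oat, Hal and Ass1, and 2 of these 5 windows held CTTTGAT, the core recognised by the TCF and LEF factors of the beta-catenin pathway, on either strand. They are shown because Slc1a2 is a pericentral gene and Hal a periportal one, so that the same letters occur on both sides of the lobule. The capitals mark CTTTGAT or its reverse complement ATCAAAG, and both stretches are written on the + strand. The Slc1a2 match lies at position -207 from the listed start, within chr2:102706206-102706262 as shown, and that start lies inside the gene body of the GENCODE annotation. The Hal match lies at position -199 from its start, within chr10:93488544-93488600.
Slc1a2: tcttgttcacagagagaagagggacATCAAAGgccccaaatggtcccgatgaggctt
Hal: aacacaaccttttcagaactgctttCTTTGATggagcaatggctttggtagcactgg

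Across all 32851 RefSeq promoter windows of the same length, 3.73% held CTTTGAT on either strand. TGACG, the core of cAMP response elements, was found in the Oat window alone among the 5, against 20.8% of all windows. CAAAG, which overlaps CTTTGAT on the other strand and is also part of HNF4A-type sites, was found in the same Slc1a2 and Hal windows and in 53.9% of all windows. These matches describe letters in a window and were not set against any measured binding.

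In the nuclei, the values were the authors' means per gene, cluster and genotype, on a scale on which each of the 26 columns (13 clusters in each pool) sums to 10000. Clusters 0, 1 and 3 were the hepatocyte clusters. In both pools 4, 7 and 6 of the 14 hepatocyte markers measured were at least 2-fold above the mean of all other clusters in clusters 0, 1 and 3. None was so in the other 10 clusters. By the same measure the other clusters carried markers of macrophages (cluster 2, 15 of 15) and sinusoidal endothelium (cluster 4, 10 of 10). Markers of stellate cells (cluster 5, 12 of 12) and vascular endothelium (cluster 9, 9 of 10) were also found, among others. Nuclei had been clustered on these same measurements, so the place of a gene among the clusters is a description. With 1 pool per genotype no difference between pools was tested, and the number of nuclei behind each mean is unknown.

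The 5 pericentral genes had their lowest hepatocyte values in cluster 1 in both pools, and their highest in cluster 0, except Oat in the MKO pool. Glul, glutamine synthetase, stood at 3.38 in the MKO pool and 4.65 in the control pool in cluster 0, at 1.56 and 1.75 in cluster 3, and at 0.17 and 0.09 in cluster 1. Lgr5, a receptor for R-spondins that amplifies Wnt signals, stood at 1.31 in the MKO pool and 2.70 in the control pool in cluster 0, at 0.67 and 0.94 in cluster 3, and at 0.08 and 0.05 in cluster 1. Slc1a2, which carries glutamate into the cell, stood at 4.63 in the MKO pool and 7.72 in the control pool in cluster 0, at 1.91 and 3.03 in cluster 3, and at 0.05 in both pools in cluster 1. For these 3 genes and for Tbx3 the order was cluster 0, then cluster 3, then cluster 1 in both pools, and the values of neighbouring clusters did not overlap between pools.

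Tbx3, a transcriptional repressor of the T-box family and a known target of beta-catenin in liver, stood at 1.45 in the MKO pool and 2.06 in the control pool in cluster 0, at 1.16 and 0.93 in cluster 3, and at 0.49 and 0.35 in cluster 1. Oat, ornithine aminotransferase, which turns ornithine towards glutamate, was the exception in its order. It stood at 0.96 in the MKO pool and 3.06 in the control pool in cluster 0, at 1.74 and 1.32 in cluster 3, and at 0.23 and 0.28 in cluster 1. Cluster 3 was thus its highest cluster in the MKO pool and cluster 0 in the control pool, and the ranges of these clusters overlapped.

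The periportal genes were highest in cluster 3 in the MKO pool, for all 5 genes, and in cluster 1 in the control pool, again for all 5. Hal, histidine ammonia-lyase, the first enzyme of histidine breakdown, stood at 1.42 in the MKO pool and 1.11 in the control pool in cluster 0, at 3.15 and 8.99 in cluster 1, and at 7.35 and 3.28 in cluster 3. Sds, serine dehydratase, which makes pyruvate and ammonia from serine, stood at 1.43 in the MKO pool and 0.53 in the control pool in cluster 0, at 3.14 and 6.82 in cluster 1, and at 4.79 and 3.66 in cluster 3. Gls2, the liver-type glutaminase that frees ammonia from glutamine, stood at 1.28 in the MKO pool and 0.51 in the control pool in cluster 0, at 2.84 and 3.96 in cluster 1, and at 4.11 and 3.12 in cluster 3. For each of these 3 genes cluster 0 lay below clusters 1 and 3 in both pools.

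The other periportal members belong to the urea cycle, where Cps1 makes carbamoyl phosphate from ammonia and Ass1 joins citrulline to aspartate. Ass1 stood at 2.94 in the MKO pool and 3.40 in the control pool in cluster 0, at 3.61 and 10.4 in cluster 1, and at 6.84 and 7.26 in cluster 3. Cps1 stood at 33.0 in the MKO pool and 26.9 in the control pool in cluster 0, at 31.5 and 61.0 in cluster 1, and at 81.0 and 46.2 in cluster 3. The values of clusters 1 and 3 overlapped between the pools for all 5 periportal genes, so these clusters are not ordered, and for Cps1 those of clusters 0 and 1 overlapped as well. In all, 4 of the 10 zonation genes (Glul, Lgr5, Slc1a2 and Tbx3) had the same highest cluster in both pools.

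**Figure D1:**
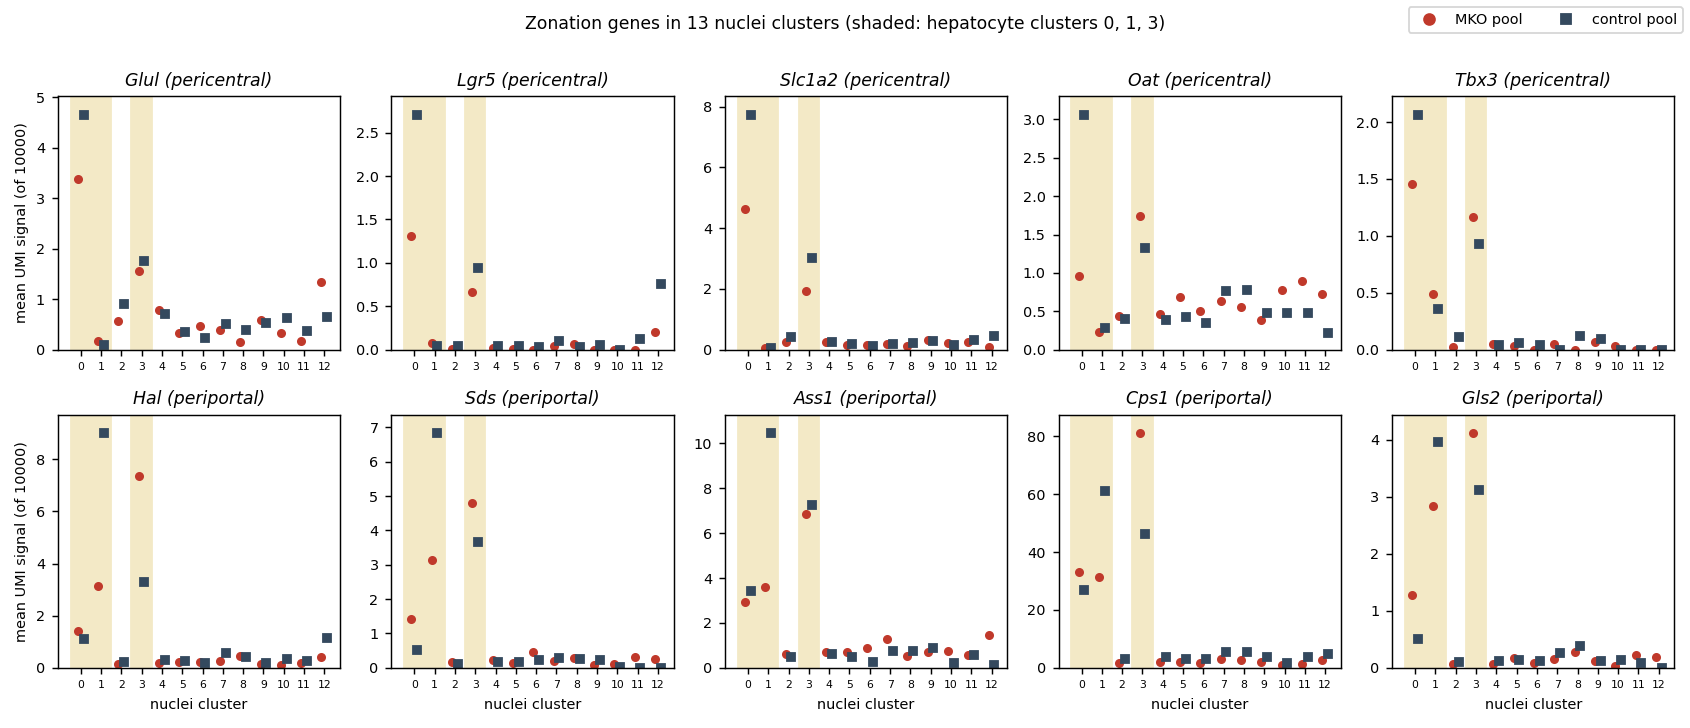
Mean UMI signal (of 10000 per column, linear axis from 0, a scale per gene) of each zonation gene in the 13 nuclei clusters, with circles for the MKO pool and squares for the control pool and hepatocyte clusters 0, 1 and 3 shaded. The periportal genes of the lower row peak in cluster 3 in the MKO pool (Hal 7.35) and in cluster 1 in the control pool (Hal 8.99), while the pericentral genes of the upper row are lowest of the hepatocyte clusters in cluster 1 (Glul 0.17 in the MKO pool and 0.09 in the control pool).

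Within each hepatocyte cluster the pools were set side by side as log2((MKO + 0.1)/(control + 0.1)), for genes whose larger value was at least 1, and a ratio beyond 1.5-fold was counted. In cluster 0 all 10 zonation genes reached that value. The 5 pericentral genes were all lower in the MKO pool, with log2 ratios of -1.58 for Oat, -0.99 for Lgr5, -0.73 for Slc1a2, -0.48 for Tbx3 and -0.45 for Glul. Of these, 3 were lower by more than 1.5-fold, and 2 periportal genes were higher by more than 1.5-fold, namely Sds (log2 ratio 1.28) and Gls2 (1.19). Of the 2513 genes of that cluster at the same minimum, 6.73% were lower and 6.65% higher beyond 1.5-fold. Hal (0.34), Cps1 (0.30) and Ass1 (-0.21) were within 1.5-fold.

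Cluster 1 held only the 5 periportal genes at the minimum, and all were lower in the MKO pool. The log2 ratios were -1.51 for Ass1, -1.48 for Hal, -1.09 for Sds and -0.95 for Cps1, all beyond 1.5-fold, and -0.46 for Gls2. No member was higher beyond 1.5-fold there, while 6.35% of the 2474 genes of the cluster at the minimum were lower and 8.04% higher. Cluster 3 showed the other direction for Hal (log2 ratio 1.14) and Cps1 (0.81), which were higher in the MKO pool beyond 1.5-fold, and Slc1a2 was lower (-0.63). Of the 2526 genes of that cluster, 10.2% were higher and 10.5% lower. The other 6 genes at the minimum in cluster 3 were within 1.5-fold, from -0.15 for Glul to 0.39 for Gls2, and Lgr5 did not reach the minimum. Over the 3 clusters, 12 of 24 values were beyond 1.5-fold.

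The contrast between clusters 0 and 1 was smaller in the MKO pool for all 10 zonation genes. On the same scale of value + 0.1, cluster 0 exceeded cluster 1 in Slc1a2 by 30.6-fold in the MKO pool and 52.4-fold in the control pool. The corresponding folds were 12.7 and 25.4 for Glul, 8.02 and 19.2 for Lgr5, 3.22 and 8.22 for Oat, and 2.64 and 4.77 for Tbx3. In the opposite direction, cluster 1 exceeded cluster 0 in Sds by 2.11-fold in the MKO pool and 10.95-fold in the control pool. The folds were 2.14 and 7.54 for Hal, 2.13 and 6.70 for Gls2, 1.22 and 3.01 for Ass1, and 0.956 and 2.27 for Cps1, so that Cps1 did not differ between these clusters in the MKO pool by more than a few percent.

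A smaller contrast was common among all genes that differed between these clusters, zonation genes included. Of 61 genes that were at least 2-fold higher in cluster 0 than in cluster 1 in the mean of both pools, 82.0% had a smaller contrast in the MKO pool, with a median log2 contrast of 1.40 in the MKO pool and 2.09 in the control pool. Of 43 genes with the opposite contrast, 72.1% were smaller in the MKO pool. Their medians were 1.09 in the MKO pool and 1.70 in the control pool. The 61 genes include the pericentral zonation genes, and the 43 include Hal, Sds and Gls2. The shares without them were not computed. The mix of nuclei that entered a cluster can differ between the pools, and such a difference cannot be told apart from one in the level per nucleus.

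Outside the hepatocyte clusters the zonation genes were below their hepatocyte peak, but not always below their level in hepatocyte cluster 1. Slc1a2 stood at 0.05 in cluster 1 of both pools, against at least 0.09 (MKO) and 0.12 (control) in the 10 other clusters. In the control pool Glul stood at 0.09 in cluster 1 and at 0.22 or more in the other clusters. In the MKO pool Oat stood at 0.23 in cluster 1 and at 0.39 or more in the others. Each of the 10 had a higher value in its highest hepatocyte cluster than in any of the 10 other clusters, in both pools. On the value + 0.1 scale that ratio was smallest for Oat in the MKO pool (1.84) and largest for Cps1 in the MKO pool (25.5). Cps1 ranged from 0.92 to 3.08 in the other clusters of the MKO pool and from 1.76 to 5.48 in those of the control pool, and was lower in the MKO pool in 10 of 10. Albumin (Alb) and apolipoprotein A1 (Apoa1), hepatocyte transcripts that are not among the 10 genes followed, went the other way in those same clusters. Both were higher in the MKO pool in 10 of 10. Alb ranged from 32.3 to 72.6 there in the MKO pool and from 17.0 to 50.3 in the control pool. Apoa1 ranged from 10.8 to 23.9 in the MKO pool and from 4.59 to 13.7 in the control pool. Within the hepatocyte clusters, Alb and Apoa1 were themselves lower in cluster 0 than in cluster 1 in each pool.

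The range of Alb outside the hepatocyte clusters overlapped its values within them, where it stood at 58.6 in the MKO pool and 24.7 in the control pool in cluster 0, at 68.8 and 62.6 in cluster 1, and at 45.7 and 45.2 in cluster 3. The summed level of the 14 hepatocyte markers was 177 in the MKO pool and 114 in the control pool in cluster 0, 203 and 189 in cluster 1, and 186 and 159 in cluster 3. Outside these clusters the same sum ranged from 68.6 (cluster 10) to 158 (cluster 7) in the MKO pool. In the control pool it ranged from 40.0 (cluster 10) to 105 (cluster 8). The MKO sum of cluster 7 was thus above the control sum of cluster 0. The 15 macrophage markers summed to between 1.10 and 1.40 in the 3 hepatocyte clusters of the MKO pool and to between 0.63 and 1.13 in those of the control pool, against 78.5 and 63.4 in cluster 2. The part of transcripts from outside the nucleus in the zonation values was not tested.

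**Figure D2:**
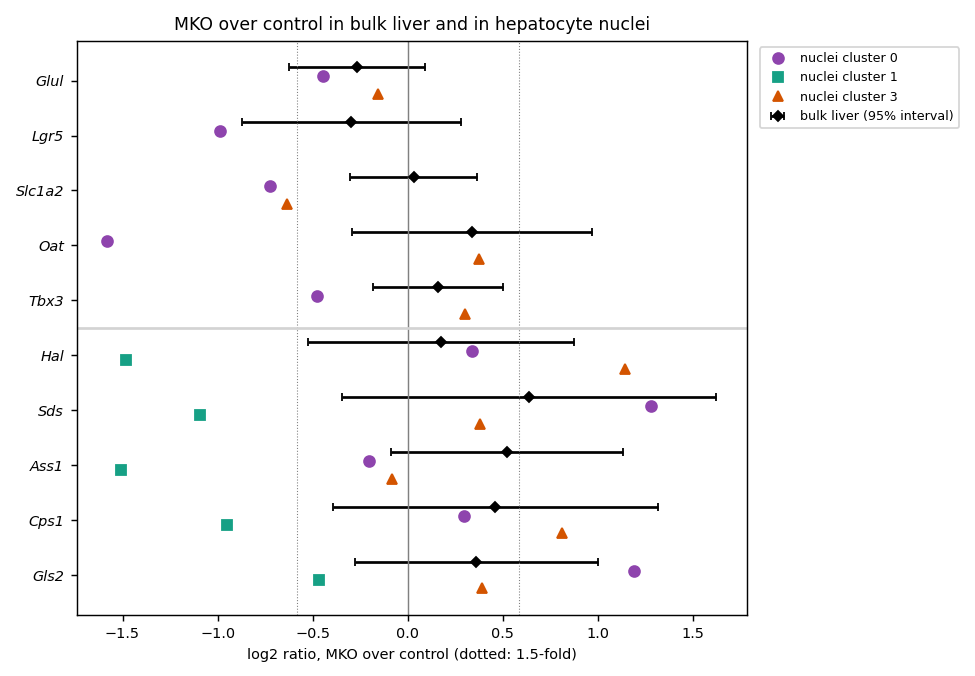
Log2 ratio of MKO over control (horizontal axis; dotted lines at 1.5-fold) for each zonation gene, with black diamonds and bars for the bulk estimate and its 95% interval and coloured symbols for nuclei clusters 0, 1 and 3, where a gene reached a value of 1 in either pool. The 5 periportal genes lie left of 0 in cluster 1 (Ass1 at -1.51), while in bulk liver all 10 intervals include 0.

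The genes that send and receive the pericentral signal were measured in the same nuclei. Rspo3, which encodes R-spondin 3, stood at 17.5 in the MKO pool and 21.7 in the control pool in the vascular endothelial cluster 9, and at 8.38 and 8.09 in the stellate cluster 5. Wnt9b in cluster 9 stood at 2.04 in the MKO pool and 1.41 in the control pool, and Wnt2 in the sinusoidal endothelial cluster 4 at 1.84 and 1.92. Axin2, a feedback inhibitor that beta-catenin switches on, stood at 0.18 in the MKO pool and 0.41 in the control pool in cluster 0, at 0.04 and 0.05 in cluster 1, and at 0.21 and 0.16 in cluster 3, all below the minimum of 1. Rnf43, a ligase that removes Wnt receptors and is itself induced by Wnt, stood at 3.74 in the MKO pool and 4.43 in the control pool in cluster 0, at 2.02 and 1.48 in cluster 1, and at 2.42 and 1.91 in cluster 3. Rnf43 was thus lower in the MKO pool in cluster 0 and higher in clusters 1 and 3, within 1.5-fold in each. Of the 8 genes of a list of 26 Wnt and R-spondin pathway genes that reached the minimum in cluster 0, 1 was higher (Tcf7l1) and 1 lower (Lgr5) beyond 1.5-fold, and in clusters 1 and 3 the counts were 0 of 7 and 0 of 8. Of all genes at the minimum, 6.65% were higher and 6.73% lower in cluster 0. The shares were 8.04% and 6.35% in cluster 1, and 10.2% and 10.5% in cluster 3. Tgfbr1, the targeted gene, stood at 4.87 in the MKO pool and 13.5 in the control pool in the macrophage cluster 2, and between 0.996 and 1.11 in the MKO pool and between 1.12 and 1.25 in the control pool in the hepatocyte clusters.

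Wider lists of zonated genes that are no members were described in the same way. Of 25 further periportal genes, 22 reached the minimum in cluster 3, where 14 were higher and 1 lower in the MKO pool beyond 1.5-fold, with a median log2 ratio of 0.82 against -0.11 over all genes of that cluster. Of all genes of cluster 3 at the minimum, 10.2% were higher and 10.5% lower beyond 1.5-fold. Arg1, the arginase that releases urea, stood at 17.0 in the MKO pool and 7.12 in the control pool in cluster 3, Asl, which splits argininosuccinate, at 4.90 and 1.66, and G6pc, the last enzyme of glucose output, at 5.74 and 1.65. In cluster 1, 2 of 19 such genes, Pigr and Apof, were higher and 4 lower (median -0.13), and in cluster 0, 6 of 16 were higher and 4 lower (median 0.35). Of all genes at the minimum, 8.04% were higher and 6.35% lower in cluster 1, and 6.65% and 6.73% in cluster 0. The arginine carrier Slc7a2 was lower in all 3 clusters, at 22.4 in the MKO pool and 38.5 in the control pool in cluster 0. It stood at 37.4 and 72.7 in cluster 1, and at 33.6 and 51.9 in cluster 3. Slc7a2 was also lower in the MKO pool in every cluster outside the hepatocytes, such as the macrophage cluster 2 (0.85 and 3.04).

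Of 25 further pericentral genes, 15 reached the minimum in cluster 0, where 0 were higher and 2 were lower beyond 1.5-fold, with a median of -0.21 against -0.06 over all genes of the cluster. The 2 were Lhpp, a phosphatase, at 1.52 in the MKO pool and 3.31 in the control pool, and Gulo, the last enzyme of vitamin C synthesis, at 1.28 and 2.26. In cluster 3, 4 of 13 were higher, namely Pon1, Aldh1a1, Cyp27a1 and Cyp7a1, and 0 lower (median 0.33). The largest ratio among them was that of Cyp7a1, the rate-limiting enzyme of bile acid synthesis, at 2.42 in the MKO pool and 0.32 in the control pool. Of all genes at the minimum, 6.65% were higher and 6.73% lower in cluster 0, and 10.2% and 10.5% in cluster 3.

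Among pathways, histidine and serine breakdown held 5 genes at the minimum beside Hal and Sds. In cluster 3, 4 of these 5 were higher and 0 lower beyond 1.5-fold, in cluster 1 0 were higher and 1 lower, and in cluster 0 3 were higher and 0 lower. Of all genes, 10.2% were higher and 10.5% lower in cluster 3, 8.04% and 6.35% in cluster 1, and 6.65% and 6.73% in cluster 0. Uroc1, Ftcd and Gldc are also among the further periportal genes counted above, and without them 1 of 2 was higher in cluster 3 and none differed by more than 1.5-fold in clusters 0 and 1. In cluster 3 the enzymes after Hal in histidine breakdown stood at 4.06 in the MKO pool and 2.25 in the control pool for Uroc1, 7.04 and 3.31 for Amdhd1, and 7.61 and 4.15 for Ftcd. The urea cycle list held 5 genes at the minimum beside Cps1 and Ass1, of which 3 were higher and 0 lower in cluster 3, namely Arg1, Asl and Otc, which are also among the further periportal genes. In cluster 1, 0 were higher and 1 was lower, the mitochondrial ornithine carrier Slc25a15. It stood at 0.79 in the MKO pool and 1.53 in the control pool. In cluster 0, Arg1 was higher and Slc25a15 lower. The glutamine and ammonia list, zonation genes included, held 2 higher and 4 lower of 12 genes in cluster 3. In cluster 1 the counts were 0 and 3 of 9, and in cluster 0 they were 1 and 3 of 12. Of the glucagon response genes beside the zonation genes, 3 of 8 were higher and 0 lower in cluster 3. In cluster 1 the counts were 0 and 1 of 7, and in cluster 0 they were 0 and 2 of 9. Both lists share genes with the further periportal ones.

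**Figure D3:**
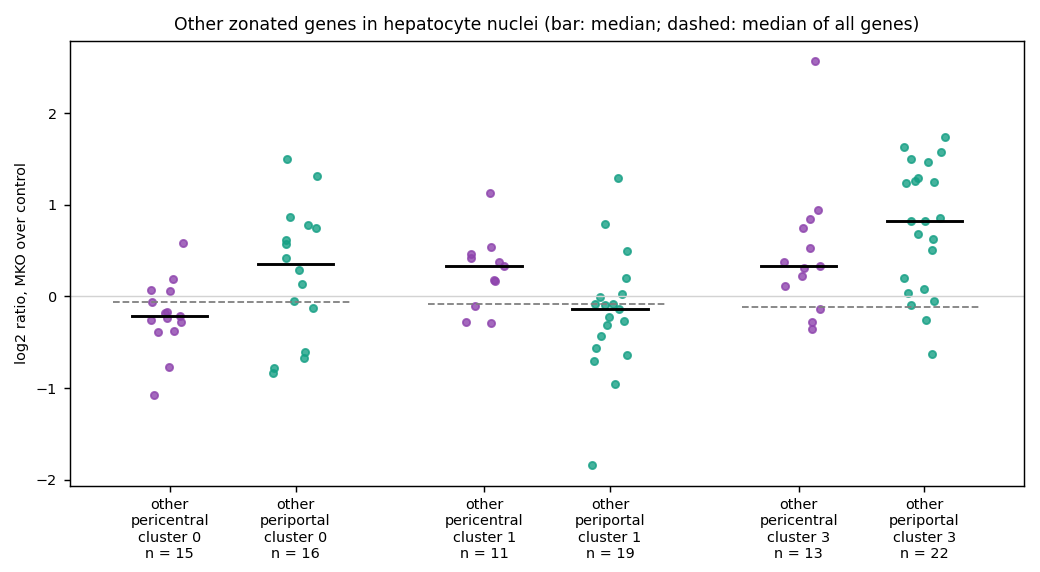
Log2 ratio of MKO over control (vertical axis) for the further pericentral (purple) and periportal (green) genes that reached a value of 1 in hepatocyte clusters 0, 1 and 3, each point a gene, with a bar at the median and a dashed line at the median of all genes of the cluster. The further periportal genes of cluster 3 have a median of 0.82, against -0.13 in cluster 1.

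The genes whose pattern over the 26 columns was most like that of each zonation gene were found by Pearson's r of log2(value + 0.1) among 6445 genes, given as a description since the columns share pools and clusters. Slc1a2 was the nearest gene to Glul (r = 0.86), to Lgr5 (0.87) and to Oat (0.74), and its own nearest gene was Cyp2c38 (0.91). Tbx3 was nearest to Abcb11 and Notum (both 0.94). Hal was nearest to Pck1 (0.96), Ftcd (0.95) and Cps1 (0.94), and Sds to Gls2 (0.95), Arg1 (0.93) and Ahsg (0.93). Gls2 was nearest to Uroc1 (0.96), Cps1 to Uox (0.98), and Ass1 to Agxt (0.95).

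In bulk liver the values are normalised read counts, gene counts divided by a size factor for each library, over 17448117 to 23986319 recovered reads in MKO libraries and 20638906 to 23673147 in control libraries. MKO was compared with control by limma on log2(value + 1), with p-values adjusted over all 15249 genes tested. The threshold was an adjusted p of 0.05, which 3.05% of all genes passed, 2.96% higher and 0.0853% lower in MKO livers, and of the 10 zonation genes 0 were called. The count was 0 also at an unadjusted p under 0.05 with limma, where 12.1% of all genes lay, and 0 with edgeR and with DESeq2 after adjustment, while the unadjusted DESeq2 p was under 0.05 for Ass1 (0.019) and Cps1 (0.047). The values of the genotypes overlapped for all 10 genes, whereas 19.4% of all genes did not overlap. In the authors' deposited table, too, 0 of the 10 genes had an adjusted p under 0.05, against 880 genes in all. The labels number the 3 libraries of a genotype without saying whether each is a separate animal, so these p-values measure the spread between libraries, which may be technical. In whole liver, fewer cells of a type and less RNA per cell cannot be told apart.

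For each pericentral gene the 95% interval of the log2 fold change included 0. Glul (build mm10, chr1:153899944-153909723, + strand) was read at 11099, 13018 and 13124 in MKO livers and at 14323, 17623 and 13100 in control livers. The 3 MKO values were below the middle control value, and the highest of them was just above the lowest control value. The log2 fold change was -0.27 ± 0.16 (SE, n = 3 each; limma adjusted p = 0.577), with a 95% interval of -0.63 to 0.09. Lgr5 (chr10:115450311-115587780, - strand) was read at 135, 187 and 90.5 in MKO livers and at 182, 149 and 157 in control livers, a log2 fold change of -0.30 ± 0.25 (adjusted p = 0.724; interval -0.87 to 0.28). Both the highest and the lowest Lgr5 values were from MKO livers, 2 and 3.

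Slc1a2 (chr2:102658659-102790784, + strand) was read at 3315, 3516 and 3289 in MKO livers and at 3698, 3665 and 2650 in control livers, a log2 fold change of 0.03 ± 0.15 (limma adjusted p = 0.961; interval -0.30 to 0.37). Tbx3 (chr5:119670669-119684724, + strand) was read at 1339, 1686 and 1601 in MKO livers and at 1484, 1137 and 1545 in control livers, a log2 fold change of 0.16 ± 0.15 (adjusted p = 0.757; interval -0.19 to 0.50). In both genes the lowest library was a control, control 3 for Slc1a2 and control 2 for Tbx3, and the genotypes overlapped. Oat (chr7:132557478-132576398, - strand) was read at 25228, 16429 and 34278 in MKO livers and at 18680, 23853 and 15767 in control livers, a log2 fold change of 0.34 ± 0.28 (adjusted p = 0.709; interval -0.29 to 0.97). Its highest value was in MKO 3, and MKO 2 lay among the controls.

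The periportal genes had higher means in MKO livers, and in each of the 5 the highest library was MKO 3. Cps1 (chr1:67123026-67231259, + strand) was read at 33390, 78314 and 99050 in MKO livers and at 41466, 49187 and 48767 in control livers. MKO 2 and 3 lay above every control, and MKO 1 below every control. The log2 fold change was 0.46 ± 0.37 (SE, n = 3 each; limma adjusted p = 0.708), with a 95% interval of -0.39 to 1.31. Ass1 (chr2:31470207-31520672, + strand) was read at 25762, 25079 and 48424 in MKO livers and at 19498, 25760 and 21056 in control livers, a log2 fold change of 0.52 ± 0.27 (adjusted p = 0.502; interval -0.09 to 1.13). MKO 1 and 2 of Ass1 were close to the highest control.

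Sds (chr5:120476526-120483932, + strand) was read at 3619, 1718 and 6844 in MKO livers and at 2036, 3006 and 1842 in control livers. It averaged 4060 ± 2591 in MKO livers and 2294 ± 623 in control livers (SD, n = 3 each), and its log2 fold change was 0.64 ± 0.43 (limma adjusted p = 0.639; interval -0.35 to 1.62), with MKO 2 the lowest of all 6 libraries. Hal (chr10:93488768-93519304, + strand) was read at 6685, 4179 and 10946 in MKO livers and at 5384, 7168 and 5519 in control livers, a log2 fold change of 0.17 ± 0.31 (adjusted p = 0.881; interval -0.53 to 0.87). As in Sds, the highest and the lowest Hal values were both from MKO livers. Gls2 (chr10:128194457-128210004, + strand) was read at 3759, 3093 and 7205 in MKO livers and at 3529, 3794 and 2952 in control livers, a log2 fold change of 0.36 ± 0.28 (adjusted p = 0.693; interval -0.28 to 1.001). Apart from MKO 3, the Gls2 values of both genotypes lay within the same range.

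**Figure D4:**
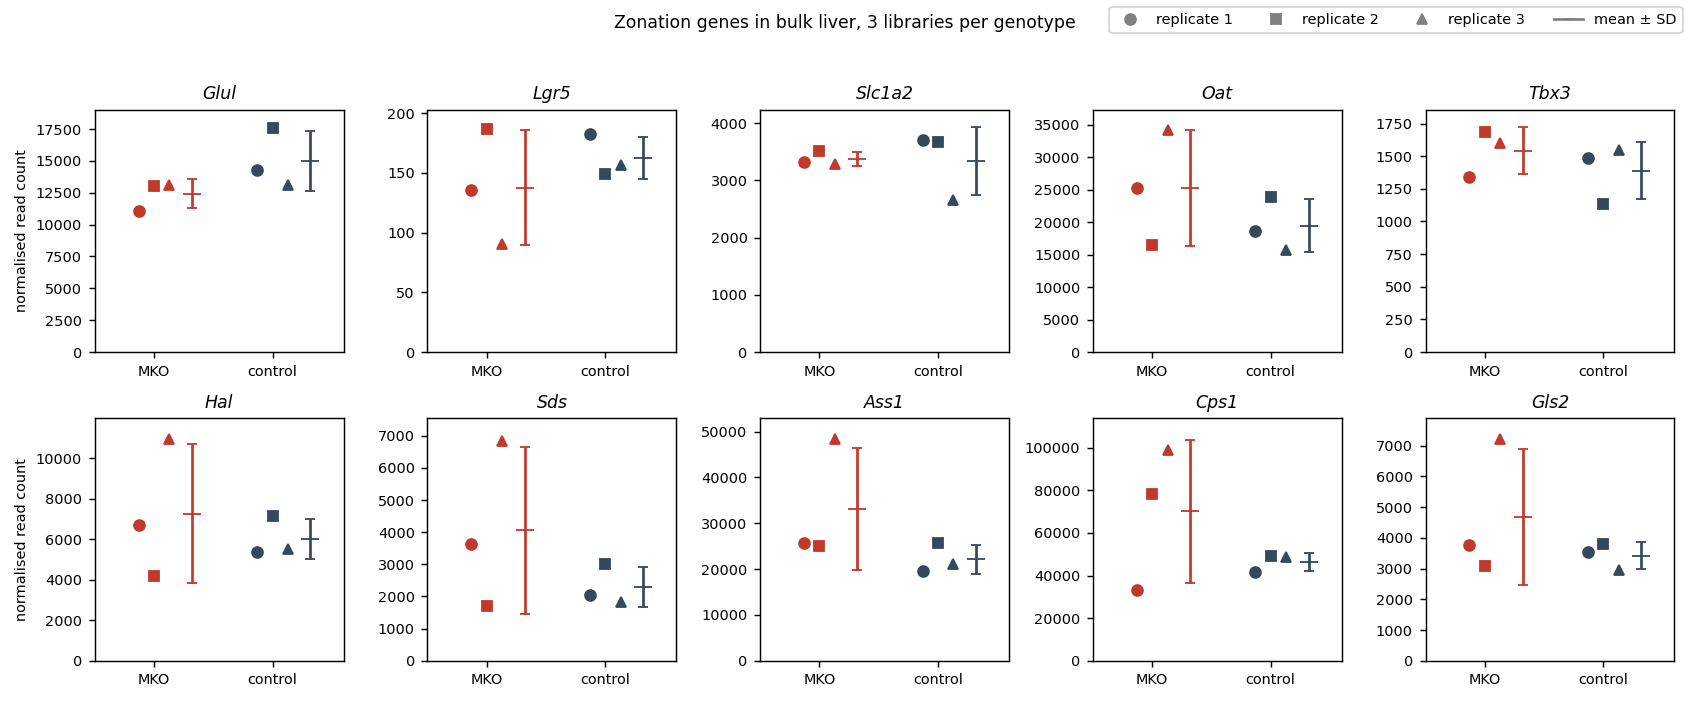
Normalised read count (linear axis from 0, a scale per gene) of each zonation gene in the 6 bulk libraries, MKO left of control, with a symbol for each replicate and the mean ± SD (n = 3) beside them. MKO 3 is the highest library for all 5 periportal genes of the lower row and for Oat, and the control values overlap the MKO values in every panel.

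In bulk the periportal genes spread more widely among MKO livers than among control livers. The highest MKO library exceeded the lowest by 3.98-fold for Sds, 2.97-fold for Cps1, 2.62-fold for Hal, 2.33-fold for Gls2 and 1.93-fold for Ass1, whereas the control libraries spanned 1.63-fold, 1.19-fold, 1.33-fold, 1.29-fold and 1.32-fold in the same genes. The median of this span was 2.62 in MKO livers and 1.32 in control livers for the periportal genes, 1.26 and 1.36 for the pericentral genes, and 1.36 and 1.25 for all genes. The SD of the log2 values was larger among MKO than among control libraries for 5 of 5 periportal and 2 of 5 pericentral genes. That held for 62.4% of all genes. The 2 pericentral genes were Lgr5, which spanned 2.05-fold in MKO and 1.22-fold in control livers, and Oat (2.09 and 1.51). MKO 3 was the highest library in 6 of the 10 zonation genes, and in 18.2% of all genes. Without MKO 3 the log2 fold changes of the periportal genes were 0.21 for Ass1, 0.15 for Sds, 0.14 for Cps1, 0.00 for Gls2 and -0.18 for Hal.

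MKO 3 was the highest library in 15 of 25 further periportal genes, against 18.2% of all genes. With the zonation genes left out it was the highest in 4 of 6 measured urea cycle genes, in 4 of 10 genes of histidine and serine breakdown and in 3 of 11 genes of the glucagon and amino acid response. Some of these are also among the further periportal genes, and without those the counts were 2 of 3, 2 of 6 and 2 of 8. Asl was read at 5673, 5407 and 18073 in MKO livers and at 4291, 5344 and 4164 in control livers (limma log2 fold change 0.85 ± 0.41, adjusted p = 0.474). Sdsl, a relative of Sds, was read at 345, 339 and 1314 in MKO livers and at 342, 354 and 292 in control livers (0.71 ± 0.46, adjusted p = 0.623). In Asl all 3 MKO values lay above all control values, with MKO 1 and 2 close to the highest control. The genotypes did not overlap in 19.4% of all genes. In Sdsl they overlapped, with MKO 1 and 2 among the controls.

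As a mean log2 deviation from the 6 libraries, the 5 periportal genes stood at -0.06, -0.23 and 0.94 in MKO livers and at -0.33, 0.02 and -0.33 in control livers. The 5 pericentral genes stood at -0.06, 0.04 and 0.01 in MKO livers and at 0.07, 0.07 and -0.13 in control livers. In MKO 3, Lgr5 was the lowest and Oat the highest of the 6 libraries, which this mean does not show. Hepatocyte markers, 14 genes, stood at -0.11, -0.10 and 0.16 in MKO livers and at -0.05, 0.28 and -0.19 in control livers. Macrophage markers, 15 genes, stood at 0.25, 0.72 and 1.02 in MKO livers and at -0.12, -0.68 and -1.19 in control livers, so MKO 3 was the highest library for these as well. Their summed level ranged from 18628 to 28959 in MKO livers and from 6603 to 13847 in control livers, with 9 of 15 called higher, while the summed hepatocyte markers ranged from 1809294 to 2120190 in MKO livers and from 1721232 to 2536838 in control livers, with 0 of 14 called. Markers of T and NK cells, 11 genes, stood at 0.35, 0.75 and 0.95 in MKO livers and at -0.71, -0.55 and -0.78 in control livers, with 4 of 11 called higher. Control 1 stood at 0.86 for 10 genes of stress and tissue handling and control 3 at 1.10 for 10 bile duct markers, while the other libraries lay between -0.26 and -0.07 and between -0.26 and -0.18 on these lists. The part of any of these in the periportal values was not tested.

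**Figure D5:**
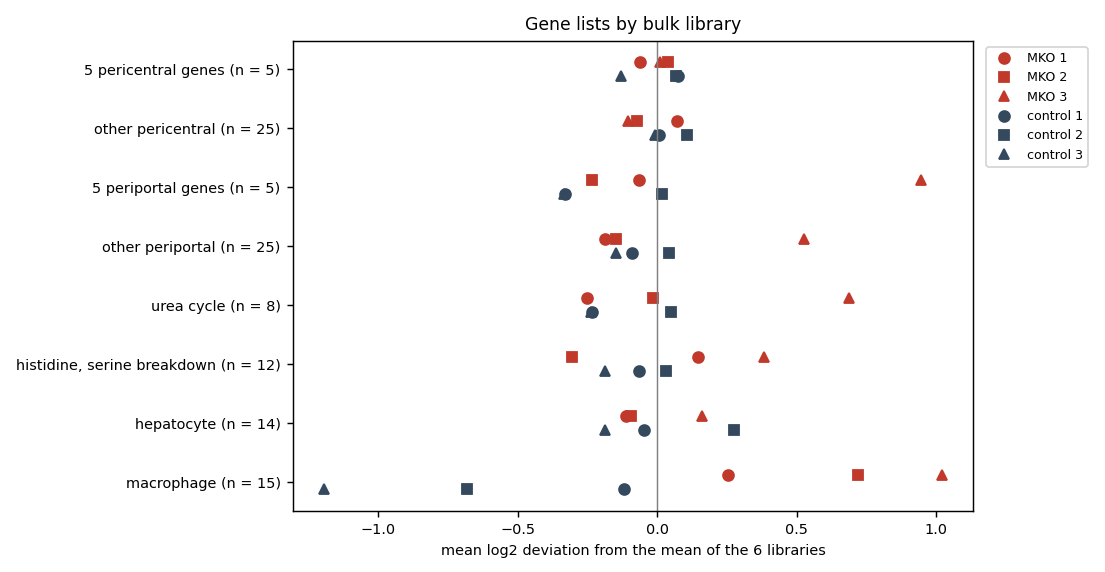
Mean log2 deviation from the mean of the 6 bulk libraries (horizontal axis) for the zonation genes and other lists, with a symbol for each replicate, MKO above control within each list. MKO 3 lies at 0.94 for the 5 periportal genes, apart from the other 5 libraries, while all libraries lie between -0.13 and 0.07 for the 5 pericentral genes.

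Among the lists around the zonation genes, DESeq2 called 1 gene in bulk and the other tests none. Of 25 further pericentral and 25 further periportal genes, 24 Wnt and R-spondin pathway genes, 8 urea cycle genes, 18 glutamine and ammonia genes, 12 histidine and serine genes and 16 glucagon response genes, limma and edgeR called 0, and DESeq2 called 1, Aldh1a1. Of all 15249 genes tested, limma called 3.05%, edgeR 482 genes and DESeq2 684 genes. At an unadjusted limma p under 0.05 these lists held 2, 1, 2, 0, 1, 0 and 0 genes in that order, against 12.1% of all genes. Their median log2 fold changes were -0.15, 0.06, -0.10, 0.31, 0.09, 0.16 and 0.12, against -0.02 for all genes.

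Aldh1a1, a retinaldehyde dehydrogenase of the pericentral zone, was read at 19305, 18121 and 15462 in MKO livers and at 27023, 27607 and 23713 in control livers. All 3 MKO values were below all control values, and 19.4% of all genes did not overlap between the genotypes. The log2 fold change of Aldh1a1 was -0.57 ± 0.16 (limma adjusted p = 0.124, DESeq2 adjusted p = 0.00284). In the nuclei it stood at 5.10 in the MKO pool and 6.69 in the control pool in cluster 0, at 4.22 and 5.14 in cluster 1, and at 2.81 and 1.52 in cluster 3. Cyp7a1 averaged 3241 ± 847 in MKO livers and 1915 ± 634 in control livers (SD, n = 3 each), and its log2 fold change was 0.78 ± 0.26 (limma adjusted p = 0.223).

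The remaining genes that the selection rule named did not pass the adjusted threshold. Among Wnt pathway genes Tcf7l2 had a limma log2 fold change of 0.46 ± 0.14 (adjusted p = 0.182) and Fzd5 one of -0.27 ± 0.13 (adjusted p = 0.489). Ctsc stood at 0.60 ± 0.22 (adjusted p = 0.289), Ppargc1a, a coactivator of fasting genes, at 0.38 ± 0.17 (0.420), and G6pc at -0.38 ± 0.22 (0.572). Slc25a13, Slc38a2 and Gcsh stood at -0.19, -0.29 and -0.15 on the same scale. Tgfbr1 was read at 560, 857 and 735 in MKO livers and at 737, 810 and 777 in control livers (-0.13 ± 0.16, adjusted p = 0.816). Reads over the whole gene in whole liver include other cell types, and which exon is floxed is not stated in the labels. Lyz2, the locus that drives the Cre, averaged 939 ± 391 in MKO livers and 1224 ± 323 in control livers (SD, n = 3 each; log2 fold change -0.44 ± 0.31, limma adjusted p = 0.651).

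Bulk liver and nuclei can be set side by side for the genes at the minimum. Glul had log2 ratios of -0.45 in cluster 0, -0.15 in cluster 3 and -0.27 ± 0.16 in bulk, while Oat had -1.58 in cluster 0, 0.38 in cluster 3 and 0.34 ± 0.28 in bulk. Hal had 0.34 in cluster 0, -1.48 in cluster 1, 1.14 in cluster 3 and 0.17 ± 0.31 in bulk, and Cps1 had 0.30, -0.95, 0.81 and 0.46 ± 0.37 in the same order. The bulk interval of Hal (-0.53 to 0.87) held its cluster 0 value and not those of clusters 1 and 3, and that of Cps1 (-0.39 to 1.31) held those of clusters 0 and 3 and not that of cluster 1. The nuclei values came from nuclei and the bulk values from whole liver, and these measurements were not combined.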

How the data were processed

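The authors deposited the bulk values as a signal, the counts of a gene over the size factor of its library. The smallest value above 0 in each library was taken as the worth of a single read (0.963 to 1.22). Division by it gave whole reads for 100% of values (tolerance 0.01). The nuclei values deposited by the authors are also a signal, a mean per gene, cluster and genotype, each column summing to 10000. The pooled samples were taken as the nuclei libraries because the table uses their labels. The build mm10 and the tools STAR, RSEM 1.3.3, FastQC, DESeq2, Seurat 4.0.1 and Cell Ranger are named, without roles, per the submitters' processing notes. Clustering, doublet handling and the number of nuclei are not given in the sources used. The authors' deposited log2 fold changes and adjusted p-values served only for a count of calls.

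Bulk values were tested with limma 3.58.1 (trend; R 4.3.3) on log2(value + 1), over the 15249 genes with a mean of at least 1 (34 left out), two-sided, with Benjamini-Hochberg adjustment over all of them. Fold changes on this scale understate those of low genes. On recovered reads, edgeR 4.0.16 called 482 genes and DESeq2 1.42.0 called 684, against 465 with limma. Libraries of a genotype differed beyond counting noise (chi-square per degree of freedom from 29.7 to 77.0 between pairs), so none was treated as a duplicate deposit. This does not show whether they are separate animals. Nuclei ratios used a pseudocount of 0.1 and a minimum larger value of 1. The analysis was tested on simulated data.

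The 10 genes and the lists were chosen with earlier results of these data known. The named genes are the 10, Tgfbr1 and Lyz2, and from each further list up to 4 called genes or, with none called, the 2 of lowest unadjusted p with a mean of at least 50. A gene that this rule takes is not reported here. For likeness, the 3 genes of highest r were taken. Genes named from the lists in the nuclei were chosen after their values were seen. Coordinates are from GENCODE M21 on mm10.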

Additional observations from a re-analysis of the deposited data

Results flagged for a closer look

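For 3 zonation genes the pools differed in opposite directions in 2 hepatocyte clusters by more than 1.5-fold each, and none of these differences was tested, since each genotype has 1 pool. For Hal the log2 ratio (MKO over control) stood higher in cluster 3 (1.14) than in cluster 1 (-1.48) by 2.62. For Sds it was higher in cluster 0 (1.28) than in cluster 1 (-1.09) by 2.37. For Cps1 it was higher in cluster 3 (0.81) than in cluster 1 (-0.95) by 1.76.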

How the results depend on the processing

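None of the 10 zonation genes was called under any of the 15 alternatives of the bulk fit, where the lowest adjusted p was 0.0887 (Cps1 without MKO 1). Of the 150 member values, 148 kept their direction; Slc1a2 was -0.13 without control 3 (-0.13 to 0.11 over the libraries left out) and Hal -0.18 without MKO 3 (-0.18 to 0.52). Tgfbr1 was 0.035 without MKO 1 (-0.27 to 0.035 over the libraries left out). Aldh1a1 was called by DESeq2 alone, at -0.56. The genes called in all, 465, were 180 to 441 with a library left out: 243 without control 2, 180 without MKO 2 and 190 without MKO 3. With the replicate block 408 genes were called, and 0 members. Same-numbered libraries deviated with correlations of 0.06, -0.03 and -0.11, so they share only a number, and not every library correlated best with its own. Of the 24 nuclei values, 12 were beyond 1.5-fold and 7 beyond 2-fold. With a pseudocount of 1, Sds and Gls2 in cluster 0 were 0.67 and 0.60; the other 70 of 72 nuclei values moved by less than 1.5-fold. The highest cluster was the same in both pools for 4 genes also with rescaled MKO columns, an alternative chosen after seeing the data. Fits with a library left out also hold fewer libraries, and the cause of any change was not tested. Nuclei depth is unknown, and 3 libraries per genotype leave intervals of the periportal genes wide.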
